A study of Oryza sativa Japonica Group with 8 samples.

Results

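Rice shoots of the non-transgenic genotype (N) were compared after a cold shock of 20 h (N_CS) and at room temperature (N_RT), across every gene ID of the deposited tables. The comparison uses 4 of the 8 RNA-seq libraries of the series, taken by their titles: 2 from N_CS and 2 from N_RT. The seedlings were Oryza sativa ssp. japonica, cultivar Taipei 309, 10 days old and grown on solid medium. For N_CS the plates stood on crushed ice in a cold chamber from the afternoon to the next morning. For N_RT they stayed at ambient temperature for the same hours, so that both groups were harvested at the same time of day. The study's methods do not state the light during these hours, so that a difference in light cannot be told apart from cold. Shoots without roots were frozen, and RNA of 6 seedlings was pooled per group before poly(A) selection and directional paired-end sequencing. The sample labels call this genotype WT, and the description of the series states that WT stands for T5, the Cre-lox founder line into which the transgenes of the other genotype were inserted. Both N groups therefore carry the founder locus, although the growth protocol names them wild-type Taipei 309. The other genotype (T) expresses Arabidopsis DREB1a from the stress-inducible RD29a promoter in homozygous lines of that founder. The inserted locus also holds the marker genes NPTII, GUS, GFP and pporRFP. A difference between N and T therefore covers the whole locus. T was used here to estimate the spread between libraries and, at the end, to show where the response of N differs.

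Cold is sensed within minutes in plants, and the best-known branch of the response runs through DREB1 (also called CBF) transcription factors, which bind dehydration-responsive elements in the promoters of protective genes. Rice is a chilling-sensitive species, and japonica cultivars withstand chilling better than indica cultivars. Low temperature also slows enzymes, translation and RNA turnover in every compartment, including the plastids and mitochondria, which keep genomes of their own.

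The 4 libraries held between 19293562 and 24405824 counts, and 31492 to 31984 IDs had at least 1 count. Of 38978 IDs, 28218 had enough counts to be tested. Levels are given as CPM, the counts of an ID per 1000000 counts of its library after TMM scaling, which corrects for differences in composition, and log2 fold changes are N_CS over N_RT. A sum of 3 counts is worth 0.0644 CPM in N_RT and 0.0715 CPM in N_CS. Across genes, Pearson's r was 0.991 between the N_RT libraries and 0.990 between the N_CS libraries. They differed by more than counting noise (chi-square per degree of freedom 1.72 and 1.78), so that no library was a copy of another. They are technical libraries of 1 pool each. All p-values below therefore compare these pools of seedlings and do not cover the spread between plants, and in a bulk sample fewer cells of a type and less RNA per cell cannot be told apart. Leaf identity could not be checked with nuclear genes, since no table at hand pairs their IDs with names. The plastid genes psaC and psbB were read in every library, which by itself does not identify the tissue.

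The cold-shocked and control pools differed over a large part of the shoot transcriptome, mostly by small amounts. With 1 pool per group, differences between pools of seedlings cannot be told apart from cold, which matters most for the small changes. At a false discovery rate (FDR) of at most 0.01, by the quasi-likelihood test of edgeR over all 8 libraries, 5558 IDs rose and 5940 fell, which is 40.7% of those tested (19.7% rose and 21.1% fell). Risen IDs made up 48.3% of the calls. That split depends on scaling: with plain library totals 32.9% of the calls were rises and with upper-quartile scaling 54.6%. With plain totals the median over all IDs moved by -0.11 on the log2 scale, so that small rises are to be read relative to that shift. Among the risen IDs, 64.3% changed by less than 0.5 on the log2 scale, with a median of 0.41. The falls were larger, with a median size of 0.68, and 32.2% of them stayed under 0.5. With a change of at least 2-fold required as well, 690 IDs rose (2.45% of those tested) and 1648 fell (5.84%). The extremes went the other way, as 123 IDs rose by 3 or more on the log2 scale and 84 fell by as much. Over all IDs tested, the median log2 fold change was 0.01, the median absolute value 0.33 and the median SE 0.13. Without N_RT replicate 1, 3686 IDs rose and 5175 fell.

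**Figure D1:**
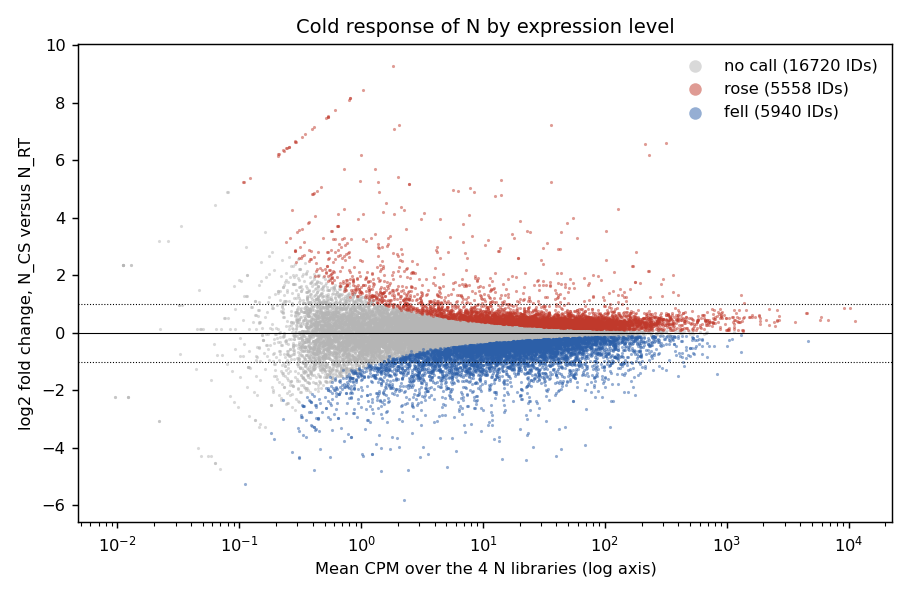
Each point is 1 tested ID, with its mean CPM over the 4 N libraries on a log axis and its log2 fold change of N_CS versus N_RT; dotted lines mark 2-fold. The 5558 risen IDs (red) and the 5940 fallen IDs (blue) lie mostly inside the dotted lines at high levels, and the streak at the upper left is made of IDs with 0 counts in N_RT, whose fitted values depend on the prior count.

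The share of IDs that rose was larger in each higher bin of level, and falls outnumbered rises in the bins from 0.5 to 50 CPM. By number, rises were most frequent from 10 to 50 CPM, with 2336 IDs, against 429 over 200 CPM. Of the 630 IDs over 200 CPM, 68.1% rose and 21.9% fell. Of the 3591 IDs from 50 to 200 CPM, 47.7% rose and 27.6% fell. The order turned below that. From 10 to 50 CPM, 23.4% of 9992 IDs rose and 27.4% fell, and from 2 to 10 CPM, 9.09% of 8079 IDs rose and 20.4% fell. The share called also follows the precision, since the median SE went from 0.0319 over 200 CPM to 0.181 from 2 to 10 CPM and 0.682 under 0.5 CPM. Changes of at least 2-fold were distributed differently. From 10 to 50 CPM only 1.08% of IDs rose by 2-fold against 4.40% that fell, and from 50 to 200 CPM the shares were 1.11% and 4.15%. Over 200 CPM they came close to each other, with 14 IDs that rose and 11 that fell by at least 2-fold.

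**Figure D2:**
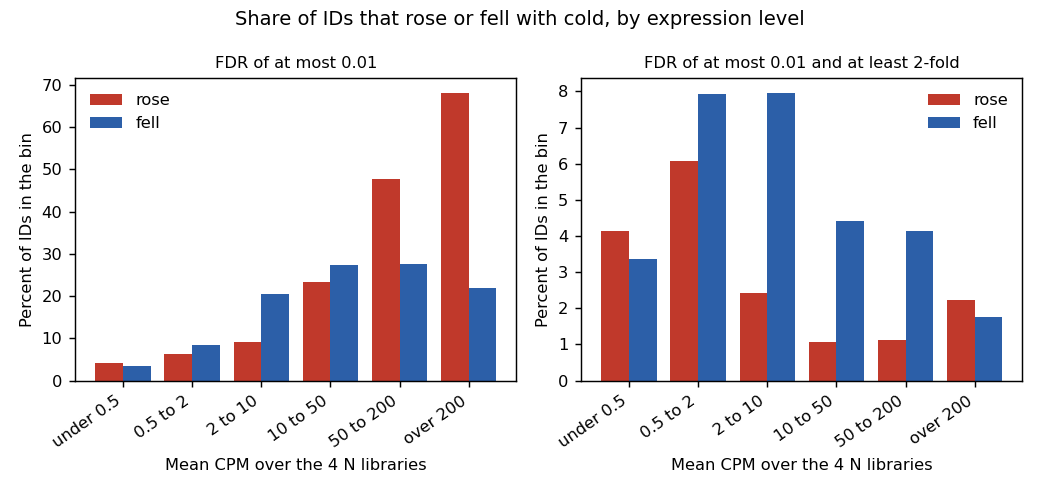
Bars give the percentage of tested IDs in each bin of mean CPM that rose (red) or fell (blue) with cold in N, on the left at an FDR of at most 0.01 and on the right with at least 2-fold as well; the vertical axes differ. Rises reach 68.1% of the IDs over 200 CPM, and falls of at least 2-fold exceed rises in every bin from 0.5 to 200 CPM.

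A larger share of each library came from risen IDs after cold. The risen IDs held 46.2% of the counts in each N_RT library and 58.4% and 58.5% in the N_CS libraries. The fallen IDs went from 28.5% in each N_RT library to 17.8% and 17.9%. These shares describe the calls and are not a test, since the calls were made on the same counts. The 690 IDs that rose by at least 2-fold still held only 2.14% and 2.18% of the counts after cold, against 0.730% and 0.714% before. The 10 IDs with the most counts together moved from 5.77% in both N_RT libraries to 7.76% and 7.81%. Of these 10, 9 rose and 1 fell, with log2 fold changes from -0.29 to 0.85.

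The DREB1 genes encode transcription factors at the head of the cold regulon. Of this family, 3 members could be identified by ID, and all 3 rose. The study also describes OsDREB1B and OsDREB1H as cold induced in both genotypes, but gives no ID for them. They could not be placed here and may be among the IDs described without a name. The qPCR primers that the study lists for OsDREB1A are shown because they state which transcript of the family was targeted, and the capitals mark the ATG with which the forward primer begins.
OsDREB1A forward: ATGtgcgggatcaagcagg
OsDREB1A reverse: tccacaccgtctggtgct
OsDREB1C (Os06g0127100, chromosome 6) had 0.577 and 0.486 CPM in the N_RT libraries and 8.18 and 8.62 CPM in the N_CS libraries. The groups were far apart, and the log2 fold change of 3.95 (SE 0.235, FDR 1.36e-23) was the largest rise among the stress genes named here. OsDREB1G (Os02g0677300, chromosome 2) had 1.04 and 1.51 CPM at room temperature and 7.39 and 10.5 CPM after cold. It rose by 2.83 on the log2 scale (SE 0.197, FDR 3.02e-20). OsDREB1A (Os09g0522200, chromosome 9), the rice counterpart of the Arabidopsis gene used as the transgene, had 63.7 and 59.3 CPM at room temperature and 95.4 and 102 CPM after cold. Both cold libraries were above both controls, but the rise was small, at 0.68 (SE 0.0514, FDR 1.94e-18). Of all tested IDs, 19.7% rose. The study already describes these 3 genes as raised by cold in N from the same libraries. The 3 of 3 is therefore a description, fixed in part by the choice of genes.

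The IDs beside OsDREB1A on chromosome 9 changed with it. IDs of this annotation are numbered along a chromosome, and the files give no names for these neighbours, so they are described by place only. The ID directly before OsDREB1A went from 1.54 and 1.17 CPM to 11.9 and 12.9 CPM, a log2 fold change of 3.17 (SE 0.189). The ID before that went from 6.19 and 6.13 CPM to 442 and 466 CPM, a rise of 6.20 (SE 0.0576, FDR 3.9e-70) that lies within the range of the 10 steepest rises given below. A further ID upstream rose by 1.5 and the ID directly after OsDREB1A by 0.67, the latter from 13.1 and 13.9 CPM to 21.1 and 21.8 CPM. Neither of the next 2 IDs after that was tested. Adjacent IDs whose counts lie within 25% of each other in every N library may share reads, and this held for none of the IDs just described. The rule does not detect reads shared between IDs of unlike level. The ID directly after OsDREB1A had log2 fold changes with cold of 0.67 in N and 2.25 in T. Those of OsDREB1A were 0.68 and 2.21. Whether this pair shares reads was not tested.

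OsHsfB2b (Os08g0546800) also rose. Its product belongs to the heat-shock factors of class B, which lack the activation domain of class A factors and can act as repressors. It had 0.5 and 0.0973 CPM in N_RT, or 13 and 2 counts, and 2.48 and 2.53 CPM in N_CS. The control libraries differed from each other by more than the cold libraries did, and the groups did not overlap. The log2 fold change was 2.95 (SE 0.452, FDR 8.37e-08). It was 4.57 without N_RT replicate 1 and 2.27 without N_RT replicate 2.

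Ethylene response factors (ERF) and WRKY factors, both large plant families of stress regulators, mostly showed no call. The genes of these and the following groups are those that the study lists by ID, and most were chosen there as higher in T than in N after cold. That contrast uses the same N_CS libraries, so the counts of falls below are not independent evidence of a direction. Of 6 tested ERF genes, 2 rose and none fell, beside 19.7% and 21.1% of all tested IDs, and so small a list cannot be told from that background. OsERF109b (Os08g0474000) went from 1.00 and 0.632 CPM to 2.17 and 2.27 CPM, a rise of 1.40 (SE 0.285, FDR 2.84e-05). OsERF109a (Os02g0764700) went from 0.154 and 0.292 CPM, or 4 and 6 counts, to 0.752 and 1.03 CPM (log2 fold change 2.01, FDR 0.000203). Its call is lost without N_RT replicate 1 (FDR 0.0237, the highest over the alternatives, the lowest being 6.37e-05). OsERF118 had 0 counts in all 4 N libraries, and OsERF67 and OsERF108 had 2 counts at most in either group, so that no fold is given for them.

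Among the 8 tested WRKY genes only OsWRKY8 (Os05g0583000) passed the test, by a fall, beside 40.7% of all tested IDs that passed. It had 18 counts over the N_RT libraries and 3 over the N_CS libraries, a ratio of 0.185 (95% interval from counting error 0.0349 to 0.633). Its FDR of 0.00828 ranged from 0.00429 to 0.104 over the alternatives and missed the threshold with DESeq2 and without any single N library. OsWRKY76 (Os09g0417600), a transcriptional repressor, had 2.11 and 2.53 CPM in N_RT and 1.99 and 1.70 CPM in N_CS, with a log2 fold change of -0.31 (FDR 0.259). OsWRKY62 had 1.73 and 1.75 CPM at room temperature and 2.08 and 2.12 CPM after cold (log2 fold change 0.27, FDR 0.358). OsWRKY24 was read at 2 counts in each group. The members of this list were low throughout, none above 2.53 CPM in an N library.

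ONAC59 (Os01g0862800), a NAC-type transcription factor gene, fell. It had 2.85 and 2.77 CPM in N_RT and 0.929 and 0.671 CPM in N_CS, with a log2 fold change of -1.79 (SE 0.259, FDR 1.81e-08). For the bHLH148-like gene, 4 counts were read in N_RT and 2 in N_CS.

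The jasmonate genes fell or showed no call, with OsLOX2 as the exception. JAZ proteins are repressors that jasmonate removes, and JAZ genes are in turn induced by the hormone, so that their transcripts serve as a readout of jasmonate signaling. Of 5 tested JAZ genes, 3 fell and none rose, against 21.1% of all IDs that fell. OsJAZ1 (Os10g0392400) went from 27.3 and 25.9 CPM to 7.30 and 7.48 CPM, a change of -1.85 (SE 0.0939, FDR 4.06e-27). OsJAZ5 (Os03g0402800), with 81.7 and 85.8 CPM in N_RT, had 49.8 and 50.3 CPM in N_CS (log2 fold change -0.74, SE 0.0471, FDR 4.11e-22). For both genes the libraries of a group lay close together and the groups were apart. OsJAZ11 (Os04g0395800) was read at 29 and 9 counts in N_RT and at 2 and 4 counts in N_CS. Its log2 fold change was -2.45 (FDR 0.00037). It was -1.61 without N_RT replicate 1 (FDR 0.0990) and lost the call without N_CS replicate 1 too (FDR 0.0190), while without N_CS replicate 2 it was -3.11, over a range of FDR from 3.02e-05 to 0.0990. OsJAZ2 and OsJAZ8/9 showed no call, with log2 fold changes of -0.04 and 0.03 on 2.94 to 7.61 CPM. The study's primers for the pair of JAZ genes at opposite ends of the range of levels are given for reference.
OsJAZ5 forward: gtgtccttcttccatcttcc
OsJAZ5 reverse: attggcctgagcaacaggaa
OsJAZ11 forward: gcagaggctataatgaggatgg
OsJAZ11 reverse: ctttggcaaaattgcctac

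Lipoxygenases (LOX) carry out the first oxidation of linolenic acid on the way to jasmonate, and OPR enzymes reduce the cyclic intermediate. OsLOX2 (Os08g0508800) rose from 11.6 and 9.63 CPM to 20.2 and 18.7 CPM, with a log2 fold change of 0.86 (SE 0.0945, FDR 3.65e-12). OsLOX1b (Os03g0700700) had 35.4 and 35.8 CPM in N_RT and 37.3 and 37.1 CPM in N_CS, with a log2 fold change of 0.06 (SE 0.0593, FDR 0.388). OsLOX1a (Os03g0738600) fell from 1.42 and 1.99 CPM to 0.929 and 0.465 CPM (log2 fold change -1.24, FDR 0.00233). It lost the call without N_RT replicate 2 (FDR 0.0395) and without N_CS replicate 2 (FDR 0.0722), and was -1.84 without N_CS replicate 1, with an FDR from 0.000685 to 0.0722 over the alternatives. OsOPR1 had 62 counts in N_RT and 34 in N_CS (FDR 0.0581), and its counts were within 25% of those of a neighbouring ID in every N library, so that the reads may be shared. OsOPR6 had 0 counts in all 4 libraries. The auxin-conjugating enzyme genes OsGH3-6 and OsGH3-8 had log2 fold changes of -0.92 (FDR 0.053) and -1.19 (FDR 0.0739).

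**Figure D3:**
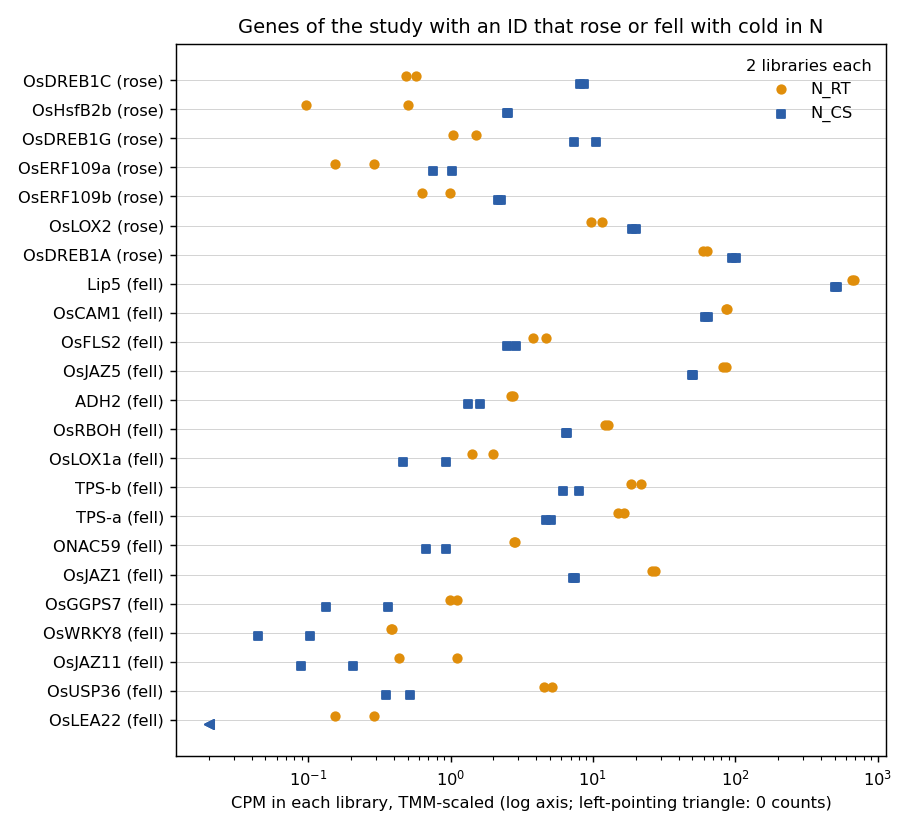
The plot shows CPM (log axis) in each N_RT library (orange circles) and each N_CS library (blue squares) for the named stress genes that rose or fell with cold in N, ordered by log2 fold change; a triangle marks 0 counts. Only called genes are drawn, so that the gap between the libraries of the 2 groups follows largely from that choice. The genes run from OsDREB1C at the top, with 0.486 to 8.62 CPM, to OsLEA22 at the bottom, with 0 counts in N_CS.

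No tested gene for a protective protein or for trehalose synthesis was called as a rise in N. Of 7 tested genes for protective proteins, 3 fell and none rose, beside 21.1% and 19.7% of all tested IDs. OsUSP36 (Os10g0437500), of the universal stress protein family, had 5.15 and 4.52 CPM in N_RT and 0.354 and 0.516 CPM in N_CS, the steepest called fall among the named stress genes read in both groups (log2 fold change -3.49, SE 0.299, FDR 3.32e-16). Lip5 (Os03g0655400) went from 680 and 667 CPM to 505 and 521 CPM, a small change of -0.39 (SE 0.0255, FDR 1.17e-21). OsLEA22 (Os01g0702500), a late embryogenesis abundant gene, had 10 counts over the N_RT libraries and 0 in N_CS. That makes it at least 3.01-fold lower in N_CS with the N_CS sum replaced by 3 counts, and its FDR of 0.00577 was lost with DESeq2 and without N_RT replicate 2 or either N_CS library (0.00126 to 0.0509 over the alternatives). The dehydrin gene Dip1 had 53.8 and 55.9 CPM at room temperature and 48.7 and 54.7 CPM after cold (FDR 0.163). OsLEA2, OsERD7 and dnaJ-b had log2 fold changes of -0.10, 0.06 and -0.17 with no call. Both tested genes for trehalose-6-phosphate synthase, the enzyme that makes the precursor of the sugar trehalose, fell. TPS-a (Os08g0445700) went from 15.1 and 16.4 CPM to 5.04 and 4.70 CPM (log2 fold change -1.68, SE 0.118, FDR 4.61e-20). TPS-b (Os08g0414700) went from 21.8 and 18.4 CPM to 7.96 and 6.19 CPM (log2 fold change -1.50, SE 0.116, FDR 2.89e-18).

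OsCAM1, OsRBOH and OsFLS2 were the signaling genes called as falls. OsCAM1 (Os03g0319300), for the calcium sensor calmodulin, had 87.3 and 86.1 CPM in N_RT and 61.2 and 64.1 CPM in N_CS (log2 fold change -0.47, SE 0.0479, FDR 2.69e-13). OsRBOH (Os12g0541300), for an NADPH oxidase that makes reactive oxygen species at the plasma membrane, went from 12.1 and 12.7 CPM to 6.63 and 6.45 CPM (log2 fold change -0.92, SE 0.117, FDR 5.97e-10). A neighbouring ID had counts within 25% of those of OsRBOH in every N library, so that part of its reads may be shared. The calcium-dependent kinase gene CDPK had 1.42 and 0.486 CPM in N_RT and 0.575 and 0.826 CPM in N_CS, and these groups overlapped (FDR 0.257). Of 7 tested kinase genes, 1 fell, a share near the 21.1% of all tested IDs. OsFLS2 (Os04g0618700), for the receptor of bacterial flagellin, went from 3.77 and 4.67 CPM to 2.48 and 2.89 CPM (log2 fold change -0.64, FDR 0.00226), and missed the threshold without N_RT replicate 2 (FDR 0.0403) or N_CS replicate 1 (FDR 0.0571), the range being 0.000358 to 0.0571.

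The metabolic genes gave few calls. OsGGPS7 (Os01g0248701), for a geranylgeranyl diphosphate synthase of terpene synthesis, fell from 1.00 and 1.12 CPM to 0.133 and 0.361 CPM (log2 fold change -2.12, FDR 0.000114). Without N_CS replicate 1 it was -1.53 (FDR 0.0188) and without N_CS replicate 2 -2.94, with an FDR from 1.49e-05 to 0.0188 over the alternatives. ADH2 (Os11g0210500), for an alcohol dehydrogenase of fermentation, had 2.73 and 2.68 CPM in N_RT and 1.33 and 1.6 CPM in N_CS (log2 fold change -0.89, FDR 0.00136). It lost the call without N_RT replicate 1 (FDR 0.0104) or N_CS replicate 1 (FDR 0.0358), over a range from 0.00031 to 0.0358. The related ADH1 had 124 and 122 CPM at room temperature and 130 and 127 CPM after cold (log2 fold change 0.07, FDR 0.112). The polyamine oxidase gene OsPAO4, which acts on spermidine and spermine, changed by -0.07 (FDR 0.303) on 33.7 to 38.4 CPM. Of the 65 named stress genes, 59 were tested, 7 rose, 16 fell and 36 showed no call, beside 19.7% and 21.1% of all tested IDs that rose and fell. Their median log2 fold change was -0.47 against 0.01 over all IDs tested. Most were chosen in the study as higher in T than in N after cold, which favors low values in N_CS, so that this median is not independent evidence of a direction. The 6 named genes that were not tested had between 0 and 6 counts in the 4 N libraries together.

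Several genes of the organelle genomes rose with cold. The tables name 112 IDs by organelle gene symbol, of which 30 were tested. The 13 tested IDs with at least 10 counts in each N_RT library could have passed the count filter without the cold libraries, and of these 8 rose, 0 fell and 5 showed no call, with a median log2 fold change of 0.79, beside 19.7% of all tested IDs that rose. The other 17 had fewer counts in N_RT and entered the test mainly through libraries in which they were higher, which tilts their calls to rises. They are therefore given singly and not counted as support. The organelle genes were taken up after their values were seen, so that the share among the 13 is a description as well. Of the 82 untested IDs, 57 had 0 counts in all N libraries, and of the rest 23 had the higher mean CPM in N_CS and 2 in N_RT. All organelle IDs together held 0.0196% and 0.02% of the counts in N_RT and 0.0309% and 0.0304% in N_CS. The libraries were selected by poly(A) tails, which organelle transcripts mostly lack or carry in short form. A change in tails and a change in the amount of transcript cannot be told apart here. How reads with several matching places were counted, such as those from nuclear copies of organelle DNA, is not stated, and its part in the result was not tested.

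The mitochondrial genes of the respiratory chain, ATP synthase and cytochrome c maturation are among those 17, and most IDs of these classes had too few counts to test. The gene cob, for cytochrome b of complex III, had 0.461 and 0.195 CPM in N_RT and 4.42 and 4.18 CPM in N_CS, a log2 fold change of 3.63 (SE 0.349, FDR 3.15e-14), which was 4.39 without N_RT replicate 1. The gene nad4L, for a subunit of complex I, went from 3 and 2 counts to 45 and 38 counts (log2 fold change 4.13, SE 0.564, FDR 3.84e-09). The gene nad6 had 0 counts in N_RT and 27 over the N_CS libraries, which is at least 9.98-fold higher with the N_RT sum replaced by 3 counts. The gene atp6, for a subunit of ATP synthase, rose from 5 and 1 counts to 24 and 31 (log2 fold change 3.31, FDR 1.9e-05). It was 4.57 without N_RT replicate 1 and 2.71 without N_RT replicate 2, and lost the call with DESeq2 (FDR 0.0167, the highest over the alternatives, against 3.65e-08 as the lowest). Summed over the 16 IDs of the respiratory chain and ATP synthase, the level was 0.846 and 0.486 CPM in N_RT and 8.89 and 8.83 CPM in N_CS. Only 6 of those 16 IDs had any count, and most N_CS counts were those of cob, nad4L, atp6 and nad6. The sum therefore repeats values given singly and does not describe the whole class. The gene ccmFn, for a factor that attaches heme to cytochrome c, had 9 counts in N_RT and 51 in N_CS (log2 fold change 2.61, FDR 7.73e-05), with an FDR of 0.0104 without N_CS replicate 1 and 1.15e-06 as the lowest over the alternatives. For ccmB the counts were 2 and 24, a ratio of 13.3 (95% interval from counting error 3.30 to 116), and its FDR of 0.00166 ranged from 2.82e-05 to 0.0356, over the threshold with DESeq2 and without N_RT replicate 2 or N_CS replicate 2.

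Among plastid genes, psbB, for the CP47 antenna protein of photosystem II, went from 2.42 and 2.82 CPM to 10.7 and 12.9 CPM, a log2 fold change of 2.17 (SE 0.169, FDR 4.77e-18). The gene psaC, for the iron-sulfur subunit of photosystem I, had 22 and 23.5 CPM in N_RT and 38.8 and 35.8 CPM in N_CS (log2 fold change 0.72, SE 0.0808, FDR 1.04e-11). The groups were apart for both genes. The gene atpI, for a subunit of the plastid ATP synthase, rose by 2.27 (FDR 6.28e-07), whereas atpA of the same complex had 25 counts in N_RT and 31 in N_CS (FDR 0.469). For the NDH complex, which returns electrons around photosystem I, the log2 fold changes of the risen genes were 1.22 for ndhF, 2.52 for ndhA and 2.59 for ndhE, of which only ndhF had at least 10 counts in each N_RT library. The call of ndhE rested on 5 counts in N_RT, all in replicate 1, and its FDR of 0.00521 ranged from 0.000206 to 0.112 over the alternatives. Without N_RT replicate 2 its log2 fold change was 1.73, and without N_RT replicate 1 it was set by the prior count. Of 3 tested genes for the plastid RNA polymerase, rpoC2 rose by 1.05 (FDR 3.41e-06) and rpoA by 0.56 (FDR 3e-08), while rpoB had a log2 fold change of 0.88 (FDR 0.0898).

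Ribosomal protein genes occur in both organelle genomes, and the symbol does not always tell which. The gene rps3 held most of the organelle counts, with 117 and 118 CPM in N_RT and 178 in each N_CS library (log2 fold change 0.60, SE 0.0379, FDR 2.06e-22). The gene rps4 went from 10 and 6 counts to 72 and 54 (log2 fold change 3.10, FDR 4.02e-10), and rps19-2 from 0 counts to 24 over the N_CS libraries, at least 8.87-fold higher. The gene rpl16 rose by 0.79 (FDR 8.29e-06). The gene rps1 was the only tested organelle ID with a negative log2 fold change, -0.47 (FDR 0.0467). Without N_RT replicate 2 it passed as a fall, with -0.71 and an FDR of 0.00953.

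**Figure D4:**
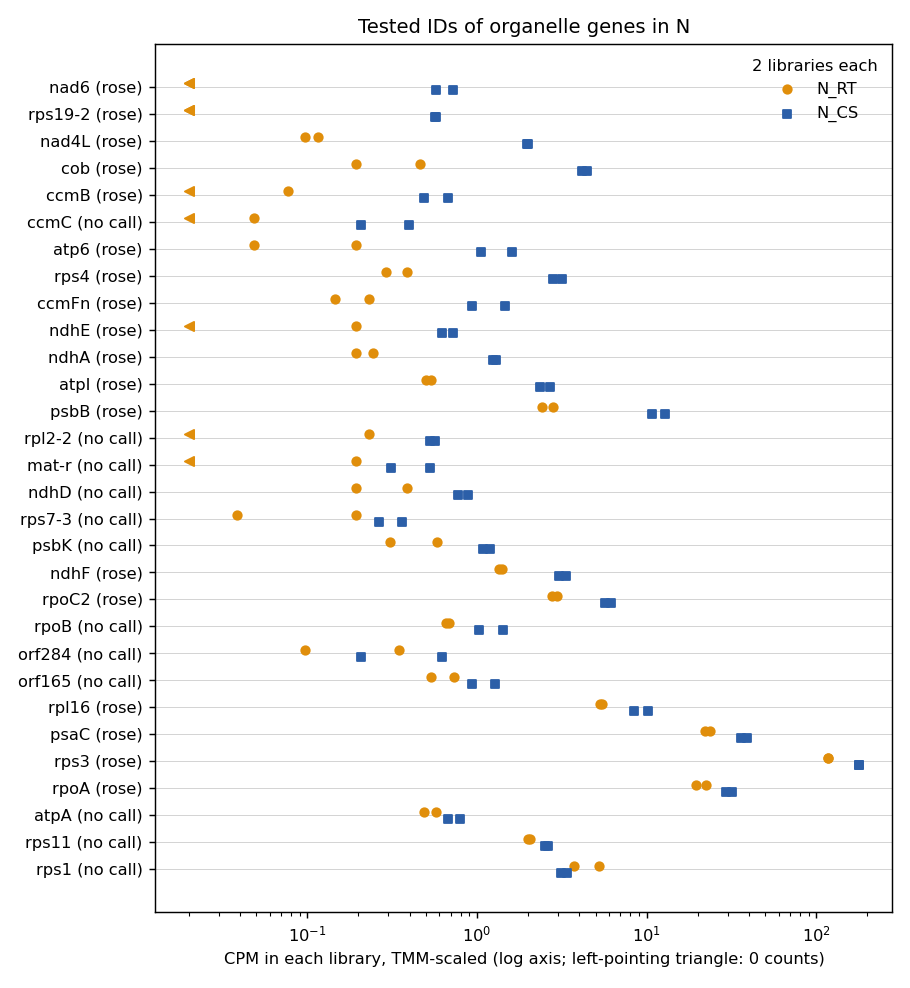
The plot shows CPM (log axis) in each N_RT library (orange circles) and each N_CS library (blue squares) for the 30 tested organelle IDs, ordered by log2 fold change; triangles mark 0 counts. The cold libraries lie to the right of the controls for nearly all IDs, including 17 IDs with under 10 counts in an N_RT library such as nad4L, and rps1 at the bottom lies the other way.

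The largest changes among IDs with at least 5 CPM on average fell on IDs that no source at hand names. Without that minimum, the called changes reached 9.30 for a rise and 5.83 for a fall on the log2 scale. Among IDs at an FDR of at most 0.01 with at least 5 CPM on average, the steepest rise was that of Os09g0457900 on chromosome 9, from 0.577 and 0.341 CPM to 72.0 and 71.3 CPM (log2 fold change 7.23, SE 0.147, FDR 1.54e-49). Os01g0186900 on chromosome 1 followed, from 5.96 and 6.81 CPM to 623 and 626 CPM (log2 fold change 6.62, SE 0.0518, FDR 2.01e-74), and was among the abundant transcripts after cold. The steepest falls were those of Os02g0445100 and Os02g0799700, both on chromosome 2. The former went from 10.0 and 9.53 CPM to 0.531 and 0.206 CPM (log2 fold change -4.66, SE 0.268), and was -5.52 without N_CS replicate 1. The latter went from 44.6 and 41.3 CPM to 2.26 and 1.65 CPM (log2 fold change -4.44, SE 0.127). The 10 steepest rises ended at 4.90 on the log2 scale and the 10 steepest falls at -3.70. At lower levels, 16 IDs had 0 counts in N_RT and at least 10 counts in each N_CS library. With the N_RT sum replaced by 3 counts, the bounds ran from at least 8.87-fold to at least 56.2-fold higher, and nad6 and rps19-2 are among them. The opposite pattern, 0 counts in N_CS with at least 10 in each N_RT library, was found for 0 IDs.

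Changed genes were spread over the 12 chromosomes. The share of tested IDs that rose was between 16.6% on chromosome 11 and 22% on chromosome 8, and the share that fell was between 18.2% on chromosome 12 and 23.0% on chromosome 3. Changes of at least 2-fold ranged from 1.86% to 2.82% for rises and from 4.58% to 6.89% for falls. Neighbouring IDs sometimes changed together. There were 54 runs of at least 3 adjacent tested IDs that all rose or all fell by at least 2-fold, 11 of them rises with 36 IDs and 43 falls with 142 IDs. The longest was a run of 7 falling IDs on chromosome 9, with log2 fold changes from -5.83 to -2.04, and the longest rising run had 5 IDs on chromosome 1, from 1.54 to 4.81. Adjacent IDs can share reads, however. With 1 ID kept of neighbours whose counts lay within 25% of each other in all 4 N libraries, 39 runs were left, 8 rising and 31 falling, and the longest held 4 rising and 5 falling IDs. Reads shared between IDs of unlike level are not removed by this step.

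The response of N overlapped in part with that of T, whose 4 libraries are separate from those of N and in which 52.4% of IDs passed the same test (26.2% rose and 26.2% fell). Of the 5558 IDs that rose in N, 3103 also rose in T, which is 55.8% of the rises in N and 42.0% of those in T, and 705 fell in T. Of the 5940 that fell in N, 3528 also fell in T (59.4% of the falls in N and 47.7% of those in T), and 979 rose. Across all tested IDs the log2 fold changes of N and T had a Pearson's r of 0.40, where genes are not independent and the libraries of N and T were scaled together. The difference of the responses passed an FDR of 0.01 for 32.7% of all IDs, for 51.7% of those that rose at least 2-fold in N and for 42.1% of those that fell at least 2-fold. Since the rises and falls in N are part of that difference, these 2 shares are descriptions.

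**Figure D5:**
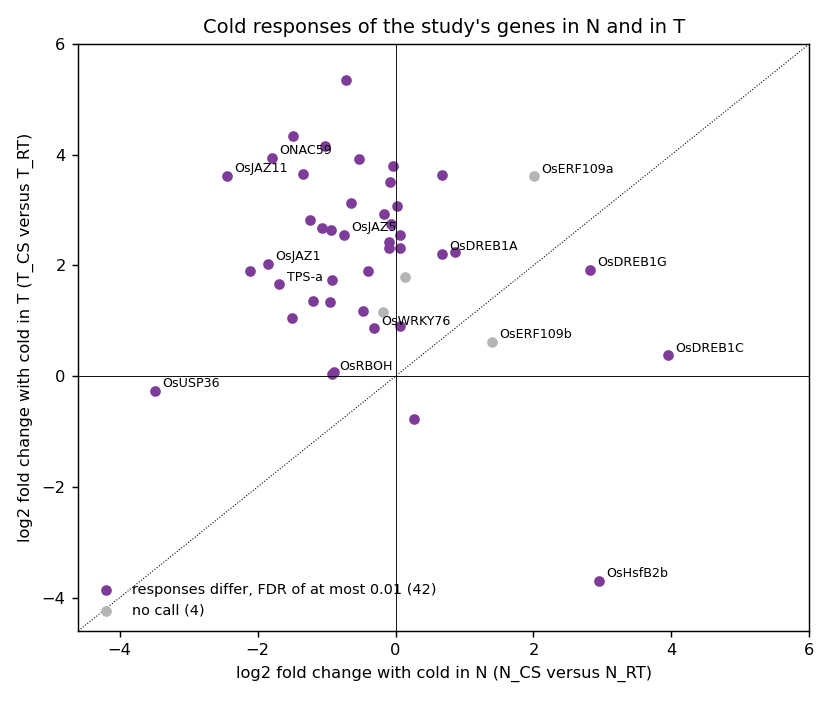
Each point is a named stress gene, with its log2 fold change with cold in N on the horizontal and in T on the vertical axis; 46 genes with more than 3 counts in both N groups are drawn, and the dotted line marks equal responses. Purple marks the 42 genes whose responses differed at an FDR of at most 0.01, and OsDREB1C and OsHsfB2b stand at the right, below the line.

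Among the named stress genes, the responses of N and T differed for 46 of 59, with the more positive response in T for 42 and in N for 4. Most of these genes were picked in the study for being higher in T than in N after cold, so that this direction was fixed in part by the choice. OsDREB1C and OsDREB1G are among the 4 with the more positive response in N, with differences of 3.57 (FDR 2.97e-17) and 0.91 on the log2 scale, whereas OsDREB1A rose by 1.53 more in T than in N (FDR 6.28e-26). In T, OsDREB1C had a log2 fold change of 0.38 (FDR 0.016). These differences include unequal levels before cold. OsDREB1C had 172 and 209 counts in T_RT against 15 and 10 in N_RT. After cold it had 223 and 175 counts in T_CS and 185 and 167 in N_CS. OsDREB1A had 423 and 517 counts in T_RT against 1657 and 1220 in N_RT, and 1885 and 1596 in T_CS against 2156 and 1971 in N_CS. OsDREB1G had more counts in T than in N under both treatments. OsHsfB2b rose in N and was lower after cold in T, where it had 52 counts over the room temperature libraries and 3 over the cold libraries (difference 6.65, FDR 2.82e-10).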

How the data were processed

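The authors used Trimmomatic for trimming, STAR for alignment to IRGSP-1.0 and featureCounts 1.6.4 for counting. The study's methods describe the result as normalized, but the deposited counts are whole numbers with unequal library totals and were treated here as raw. Whether strand was used in counting, and what was done with reads matching several IDs, is not given in the sources used here. The depth and its precision are stated with the results. Intervals and floors cover counting error only.

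IDs were kept by filterByExpr over the 4 groups (minimum count 10, minimum total count 15). All 8 libraries were fitted by group with glmQLFit and tested with glmQLFTest of edgeR 4.0.16 in R 4.3.3 with TMM scaling, and p-values were adjusted by Benjamini-Hochberg over 28218 IDs. SE is the log2 fold change divided by the root of the F statistic. A group with 0 counts was set to 3 counts for a bound. With 1 to 3 counts a ratio of scaled sums with an exact 95% interval is given, and with 3 or fewer in both groups no fold. Tables and plots were made with Python 3.11.15, pandas 2.3.3, scipy 1.17.1 and matplotlib 3.10.9. The fit was also run on simulated counts with known fold changes in N_CS, as many rises as falls. That run did not cover a shift in composition. It does not bear on how the split of rises and falls depends on scaling.

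Genes named are those the study gives with a complete ID, the organelle genes that the tables name, and the 2 steepest rises and falls over 5 CPM. The neighbours of OsDREB1A and the organelle genes were taken up after their values were seen. The members and lists were chosen with earlier results of these data known. Further lists (photosynthesis, heat-shock proteins, clock, ribosome) could not be filled, since the reference table at hand belongs to another build and matched 1 ID. The alternatives were DESeq2 1.42.0, other scalings, filters, thresholds, sample sets and tests, a replicate block and leaving out each N library.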

Additional observations from a re-analysis of the deposited data

Results flagged for a closer look

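The cold responses of N and T differed at an FDR of at most 0.01 by edgeR for 50 of the named stress genes, organelle genes and steepest IDs. The values below are the log2 fold change with cold in N minus that in T, and 43 of the 50 are negative, which means a more positive response in T. Most of these genes were chosen by the study for a high level in T after cold, and no explanation was weighed.

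The response was more positive in N for OsDREB1C (3.57), OsDREB1G (0.91), OsWRKY62 (1.05), OsHsfB2b (6.65), the plastid gene psbB (1.5), Os09g0457900 (4.26) and Os01g0186900 (3.34). The value of OsHsfB2b rests on 3 counts in the cold libraries of T and depends on the prior count.

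Among jasmonate and auxin genes, the differences were -3.87 for OsJAZ1, -3.83 for OsJAZ2, -3.29 for OsJAZ5, -3.05 for OsJAZ8/9, -6.07 for OsJAZ11, -4.06 for OsLOX1a, -2.25 for OsLOX1b, -1.37 for OsLOX2, -6.07 for OsOPR1, -2.65 for OsGH3-6 and -2.56 for OsGH3-8. Among transcription factor genes they were -7.13 for OsWRKY8, -2.95 for OsWRKY108, -1.17 for OsWRKY76, -3.58 for OsWRKY67, -2.29 for OsWRKY113, -3.74 for OsERF27, -5.74 for ONAC59, -5.70 for the bHLH148-like gene and -1.53 for OsDREB1A.

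For protective and metabolic genes the differences were -8.10 for OsLEA22, -2.52 for OsLEA2, -3.22 for OsUSP36, -3.10 for dnaJ-b, -2.49 for OsERD7, -2.40 for Dip1, -2.29 for Lip5, -3.34 for TPS-a, -2.55 for TPS-b, -4.02 for OsGGPS7, -5.83 for OsTPS3, -3.59 for OsPAO4, -5.26 for beta-1,3-glucanase, -0.84 for ADH1 and -0.97 for ADH2. For signaling genes they were -5.01 for OsRLCK253a, -5.18 for GSO2, -2.82 for LRR-RK, -3.77 for OsFLS2, -1.64 for OsCAM1, -4.45 for CDPK and -0.96 for OsRBOH. The organelle gene rps1 had -0.95 (FDR 0.00657, the highest of the 50). OsWRKY8, the bHLH148-like gene, OsLEA22 and beta-1,3-glucanase had 3 counts or fewer in N_CS, so that their fitted values depend on the prior count.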

How the results depend on the processing

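Counts of changed IDs in N kept within 1.5 times of the reported ones (5558 rose, 5940 fell, 690 and 1648 by at least 2-fold) under most alternatives. With total count scaling 3685 rose and 7524 fell. With upper-quartile scaling 6411 rose and 5324 fell. A rise of at least 2 on the log2 scale was reached by 251 IDs. Without each N library in turn, 3686 to 4592 rose, 4782 to 5461 fell, 540 to 606 rose and 1520 to 1731 fell by at least 2-fold, and the responses of N and T differed for 8052 to 8215 IDs against 9220. The low end of the rises came without N_RT replicate 1. A lone library was assumed to vary like those of the other groups. With DESeq2, 3963 rose, 4726 fell and 6902 differed between N and T. All calls that an alternative shared with the reported ones kept their sign. Of 1327 values of 93 named genes over 15 alternatives, 29 lost the call, for 12 genes, 17 gained it and none turned. Among the gains, OsLEA2, Dip1, OsPAO4 and LRR-RK passed as falls with total count scaling, whose log2 fold changes lie between -0.21 and -0.17, and ADH1 as a rise with upper-quartile scaling (0.11). Leaving out the organelle IDs or the 10 most abundant IDs was added after seeing the data and left 5550 and 5549 rises.

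With the replicate number as a block, 5486 IDs rose, 5843 fell, and 9067 differed between N and T. The numbers do not pair the libraries: the deviations of same-numbered libraries in N_RT and N_CS correlated at -0.00958.

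Depth limits IDs under 0.5 CPM, where the median SE was 0.682, and a miss there does not show that a gene was level. The libraries of a group share 1 pool, so that no value covers the spread between plants.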
